A study of Mus musculus with 100 samples.

Results

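Expression of 9 genes of the LIF and BMP signalling pathways, of 25965 in the deposited table, was compared between groups of mouse cells. These were fibroblasts, induced pluripotent stem cell (iPSC) lines reprogrammed from fibroblasts, and an embryonic stem cell line. The 9 genes were chosen by name for their place in the pathways: Lifr and Il6st (receptor subunits), Stat3 (transducer), Socs3 (feedback inhibitor), Gbx2 (STAT3 target), Bmp4 (ligand), and Id1, Id2 and Id3 (BMP targets). The choice was made with earlier results of these data known, so counts of members are not independent of those results. All 9 passed the filter on low values. RNA-seq was read in 18 libraries, 3 for each of 6 groups. Fibroblasts of each sex came from 1 embryo, an F1 hybrid of an i4F-BL6 mother, which carries a doxycycline-inducible cassette of the reprogramming factors with rtTA in the Rosa26 locus, and a CAST father. Female MEFs (mouse embryonic fibroblasts, E13.5) were the only fibroblasts with RNA-seq. The medium that the paper gives for MEFs holds foetal bovine serum, and LIF is not listed in it. The 2 female (F KSR2, F KSR4) and 2 male (M KSR3, M KSR5) KSR-iPSC lines carry the same transgenes, and each is 1 clone grown from a picked colony on feeder cells in KSR (knockout serum replacement) medium with LIF. TX 2i ESCs are a female BL6 and CAST hybrid embryonic stem cell line without this reprogramming history, grown with LIF, serum and inhibitors of MEK and GSK3. Medium and cell origin therefore differed together where KSR-iPSCs were set beside TX 2i ESCs and cannot be told apart, and the 3 libraries of a line measure the spread within 1 clone.

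LIF is a cytokine of the interleukin-6 family that binds LIFR together with the shared subunit IL6ST (gp130). The pair activates JAK kinases, which phosphorylate STAT3, and STAT3 then switches on genes of the naive pluripotent state as well as its own inhibitor SOCS3. BMP4 acts through receptor kinases and SMAD proteins to raise the ID genes, whose products bind E proteins and hold back differentiation. Together the pathways can maintain mouse embryonic stem cells in culture.

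The promoter of Socs3 is shown because it is the textbook target of STAT3, those of Gbx2 and Id2 because one stands for the LIF arm and the other for the BMP arm. Each run holds the 250 bases before the RefSeq start of the gene, 5′ to 3′ (GRCm38.p6, minus strand in all 3). The capitals mark the STAT-type motif TTCNNNGAA and the SMAD-type motif GGCGCC, both of which read the same on either strand. Socs3 lies at chr11:117969367-117969616, Gbx2 at chr1:89931177-89931426 and Id2 at chr12:25096093-25096342.
Socs3: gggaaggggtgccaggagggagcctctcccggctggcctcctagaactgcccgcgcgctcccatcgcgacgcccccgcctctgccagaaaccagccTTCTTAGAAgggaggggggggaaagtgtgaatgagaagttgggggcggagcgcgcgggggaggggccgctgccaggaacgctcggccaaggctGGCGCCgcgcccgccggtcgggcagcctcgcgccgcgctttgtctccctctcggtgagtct
Gbx2: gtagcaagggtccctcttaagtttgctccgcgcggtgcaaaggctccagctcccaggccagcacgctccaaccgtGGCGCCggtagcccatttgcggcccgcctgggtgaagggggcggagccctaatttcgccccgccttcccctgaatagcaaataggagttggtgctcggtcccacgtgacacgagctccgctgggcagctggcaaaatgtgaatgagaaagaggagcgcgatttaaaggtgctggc
Id2: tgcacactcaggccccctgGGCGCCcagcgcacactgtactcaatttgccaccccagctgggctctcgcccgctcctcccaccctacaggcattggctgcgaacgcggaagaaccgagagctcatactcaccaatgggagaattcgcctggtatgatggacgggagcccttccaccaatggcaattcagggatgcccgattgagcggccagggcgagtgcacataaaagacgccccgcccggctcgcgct
TTCNNNGAA occurred in 7.02% of the 32851 promoter windows of this length in the table, and GGCGCC in 9.59%. Of the 8 members with an entry in that table, Socs3 alone held TTCNNNGAA, once. GGCGCC was in the windows of Socs3, Gbx2, Id2 and one of the windows of Lifr. Id1 was not in the table.

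Identity was taken from position. The members lay at chromosome 15:7129559-7197489 (Lifr), 13:112475008-112506860 (Il6st), 11:100885098-100939540 (Stat3), 11:117966079-117970047 (Socs3), 1:89927962-89933290 (Gbx2), 14:46383520-46390669 (Bmp4), 2:152736251-152737410 (Id1), 12:25093801-25096092 (Id2) and 4:136143497-136145755 (Id3) on GRCm38. All are protein-coding in GENCODE vM21. For Stat3 and Bmp4 the identifier printed beside the symbol belongs to another gene, whereas symbol, position and strand are those of Stat3 and Bmp4, so these were used.

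Libraries held 13183036 to 17921280 reads on genes, with a median of 15722711. In the deposited log2 RPM (reads scaled to a library total larger than the reads on genes), 1 read stood between -4.29 and -3.89. All 6 pluripotency markers had reads in each KSR-iPSC and TX 2i ESC library, with a sum of 2779 to 6972 RPM. In MEFs that sum was at most 0.488 RPM. The 15 fibroblast markers summed to 25124 to 38936 RPM in MEFs and to 27.5 to 211 RPM in the other libraries. Among KSR-iPSC libraries the highest sum was in M KSR5 library 3. The 9 markers of differentiating cells summed to 43.1 to 117 RPM in KSR-iPSCs and 25.7 to 32.3 RPM in TX 2i ESCs. In such bulk samples, fewer cells expressing a gene and less RNA in each cell cannot be told apart.

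Pluripotent cells were first compared with the fibroblasts, as the mean of the 5 pluripotent groups against female MEFs. Of the 14632 genes tested, 74.6% were called (adjusted p under 0.05, limma), 42.1% higher and 32.5% lower. Against that background, 3 members were higher, 4 lower and 2 were not called. The LIF arm split: Lifr, Socs3 and Gbx2 rose, while Il6st and Stat3 fell. In the BMP arm Id2 and Id3 fell. MEFs are female and the 2 male lines have no fibroblast library of their own here. Medium, with LIF listed for the pluripotent groups only, changed together with cell type in this comparison. Their parts cannot be told apart.

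Gbx2, a homeobox gene of the LIF response, had 0, 3 and 5 reads in the 3 MEF libraries. In M KSR5 it stood at a log2 RPM of 6.25, 6.82 and 6.81, and in M KSR3 at 5.39, 6.18 and 6.20. F KSR2 read 6.01, 3.95 and 3.54, F KSR4 6.17, 2.42 and 5.05, and TX 2i ESCs 3.02, 2.50 and 2.42. Every pluripotent library was thus above every MEF library. Pooled over libraries, the RPM was 342 times higher in pluripotent cells (95% counting interval 174 to 793), and the fitted difference was 7.79 ± 0.60 in log2 RPM (SE, adjusted p = 2.37e-09). Gbx2 passed the filter on low values through the pluripotent libraries alone. The size of the fitted difference rests in part on the level at which the MEF library with 0 reads was held. Over all settings run it went from 4.76 to 8.30.

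Id3, a BMP-responsive inhibitor of E proteins, was the member with the largest fall. MEFs read 8.09, 7.27 and 7.66. The other libraries ran from -0.31 in F KSR2 library 2 to 4.98 in M KSR5 library 3, below all MEF libraries. The difference was -4.47 ± 0.75 (SE, adjusted p = 3.65e-05), and pooled RPM was 15.7 times higher in MEFs. Id2, of the same family, read 5.75, 5.72 and 5.97 in MEFs and 0.94 to 5.58 elsewhere, with no overlap and a difference of -2.56 ± 0.51 (adjusted p = 0.000223). Id1 did not follow: MEFs averaged 5.84 ± 0.30 (SD, n = 3) and pluripotent cells 5.01 ± 1.82 (SD, n = 15), a difference of -0.82 ± 0.57 (adjusted p = 0.203).

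Il6st, the signal-transducing receptor subunit, was at 9.01, 7.82 and 7.50 in MEFs and at 5.18 to 6.37 in all other libraries. The fall was -2.30 ± 0.23 (SE, adjusted p = 8.61e-08). Lifr, the LIF-binding subunit, went the other way, from 4.81, 4.08 and 3.84 in MEFs to 4.86 to 6.62, a difference of 1.48 ± 0.19 (adjusted p = 1.99e-06). Neither gene overlapped between MEFs and pluripotent cells. Per kilobase of exon, the mean log2 level of Il6st was 4.64 ± 0.80 (SD) and that of Lifr 0.82 ± 0.51 in MEFs. In M KSR5 they stood at 2.50 ± 0.38 and 2.86 ± 0.37, and in M KSR3 at 2.37 ± 0.26 and 2.71 ± 0.11. By mean, Il6st stayed above Lifr in F KSR2 (2.71 and 2.45), F KSR4 (1.86 and 1.81) and TX 2i ESCs (2.26 and 1.67).

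Socs3, which shuts off JAK and STAT signalling, rose by 1.65 ± 0.25 (SE, adjusted p = 1.33e-05), from 5.36, 4.41 and 4.50 in MEFs to 5.34 to 7.59. Stat3 fell by 1.24 ± 0.20 (adjusted p = 2.01e-05), from 7.74, 7.39 and 7.25 to 5.39 to 7.30. For both genes the ranges met: TX 2i ESC library 1 (5.34) sat just below the highest MEF library for Socs3, and M KSR3 library 1 (7.30) above the lowest MEF library for Stat3. Bmp4 was not called, with a difference of -0.78 ± 0.54 (adjusted p = 0.2005).

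**Figure D1:**
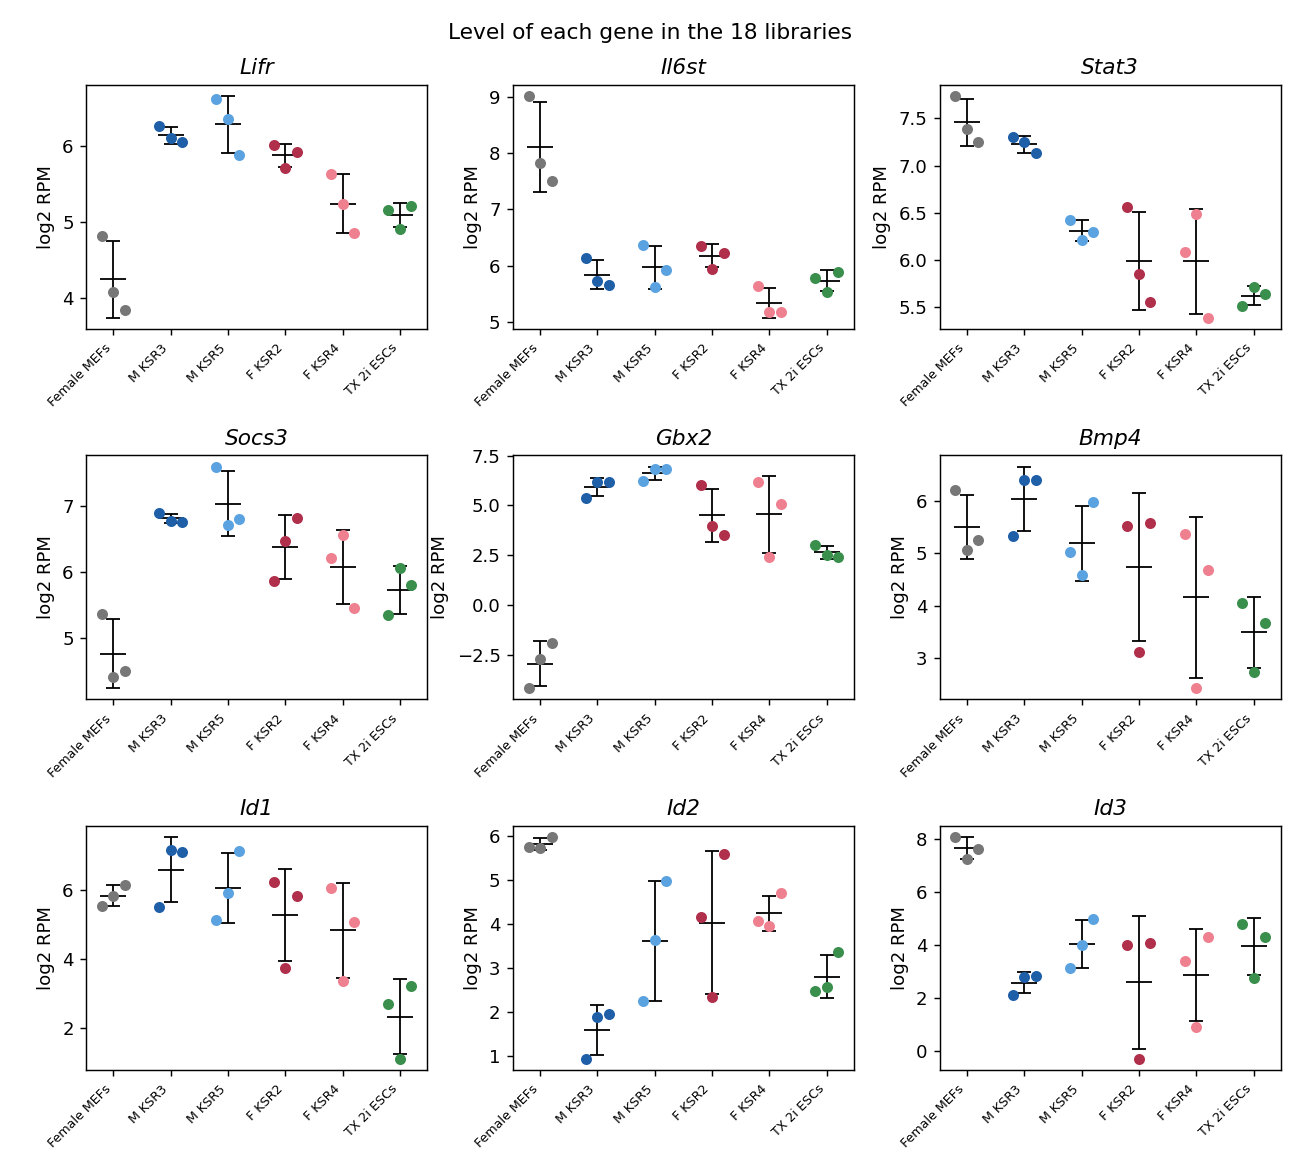
Level of each of the 9 genes (log2 RPM, vertical axis, own scale per gene) in the 18 libraries by group, with the group mean ± SD (n = 3) in black. Gbx2 is near the limit of 1 read in MEFs, Id3 and Il6st are highest in MEFs, and Id1 is lowest in TX 2i ESCs.

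The next comparison set the 4 KSR-iPSC lines against TX 2i ESCs. Background calls were 23.0% of 14632 genes, 11.0% higher in KSR-iPSCs and 12.0% lower. Of the members, 5 were higher in KSR-iPSCs and none lower, a description, since they were chosen with earlier results of these data known. Id1 stood furthest apart, followed by Gbx2, and Lifr, Stat3 and Socs3 were higher by less than 1 in log2 RPM.

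Id1 read 2.68, 1.10 and 3.21 in TX 2i ESCs, from 114, 40 and 145 reads. M KSR3 had 5.50, 7.17 and 7.10, M KSR5 5.13, 5.91 and 7.13, F KSR2 6.24, 3.74 and 5.82, and F KSR4 6.07, 3.35 and 5.07. All 12 KSR-iPSC libraries were above the 3 TX 2i ESC libraries. The difference was 3.36 ± 0.59 (SE, adjusted p = 0.000562), 12.3 times in pooled RPM. The other BMP targets gave no call, Id2 at 0.56 ± 0.52 (adjusted p = 0.488) and Id3 at -0.93 ± 0.76 (adjusted p = 0.425).

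Gbx2 was higher in KSR-iPSCs by 2.75 ± 0.61 (SE, adjusted p = 0.00338). Its ranges overlapped through F KSR4 library 2 alone, at 2.42. Lifr was higher by 0.79 ± 0.20 (adjusted p = 0.00725), Stat3 by 0.76 ± 0.20 (adjusted p = 0.0112) and Socs3 by 0.85 ± 0.26 (adjusted p = 0.0241). Single TX 2i ESC libraries decided these 3 calls: Lifr was lost without library 2 (adjusted p = 0.0567), Stat3 without library 1 (0.0633) and Socs3 without library 1 (0.165) or 3 (0.0713). With the female lines alone, which match TX 2i ESCs in sex, of these 5 only Id1 was called: Gbx2 gave 1.88 (adjusted p = 0.0606), Lifr 0.47 (0.148), Socs3 0.50 (0.246) and Stat3 0.36 (0.280).

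Bmp4 was higher in KSR-iPSCs by 1.54 ± 0.55 (SE) and was not called (adjusted p = 0.0528). It was called in 8 of 27 alternatives, among them the fit with a replicate block (adjusted p = 0.0174). TX 2i ESCs read 4.06, 2.74 and 3.67, within the 2.42 to 6.39 of KSR-iPSCs. Il6st differed by 0.10 ± 0.24 (adjusted p = 0.824).

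**Figure D2:**
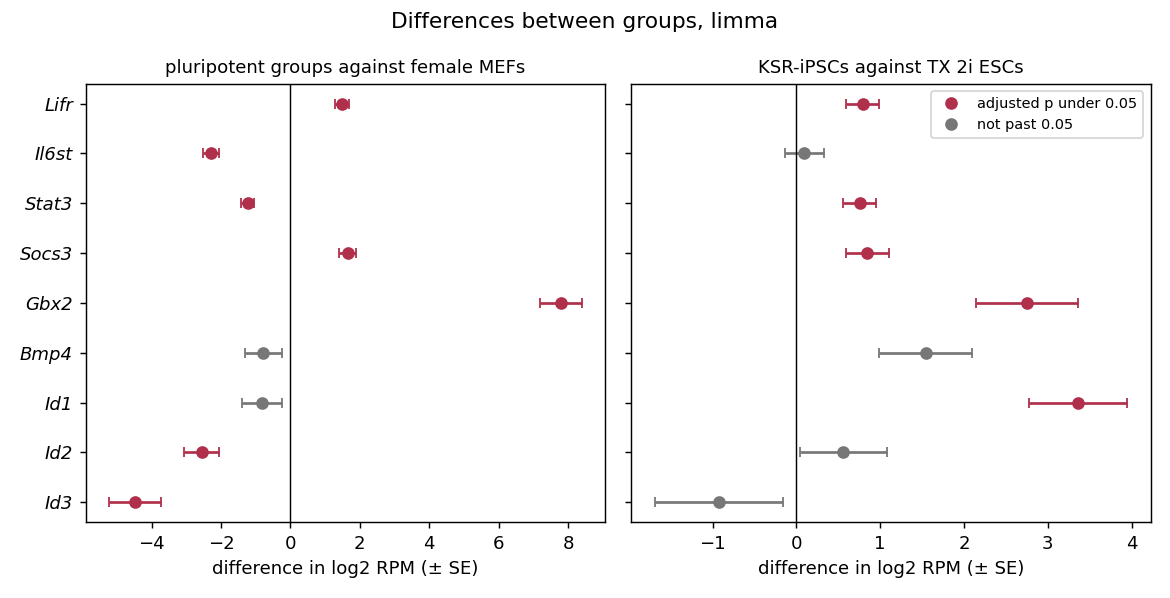
Difference in log2 RPM (horizontal axis, ± SE) for each gene in the comparison of pluripotent groups with MEFs (left) and of KSR-iPSCs with TX 2i ESCs (right). Red points passed an adjusted p of 0.05, 7 of 9 on the left and 5 of 9 on the right.

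Female and male KSR-iPSCs were compared with 6 libraries each. Calls covered 2.87% of 13609 genes, 1.59% higher in female cells and 1.28% lower. None of the 9 members was called (limma), and 2520 genes had an unadjusted p under 0.05. Gbx2 was nearest, at 4.52 ± 1.48 (SD, n = 6) in female and 6.28 ± 0.52 in male lines, a difference of -1.75 ± 0.52 (SE, adjusted p = 0.0793). Lifr differed by -0.65 ± 0.20 (adjusted p = 0.0943), Socs3 by -0.69 ± 0.22 (adjusted p = 0.105) and Stat3 by -0.78 ± 0.25 (adjusted p = 0.106). A fit of all 18 libraries gave each line its own mean, which leaves differences between clones of a sex out of the error. In that fit Gbx2, Lifr and Stat3 were called lower and Id2 higher in female lines. Each sex is 2 clones from 1 embryo.

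Between the lines of one sex, few members were called. With 3 libraries a line, a missing call does not show that a level stayed the same. F KSR2 and F KSR4 gave 1.14% of genes called, 0.574% higher and 0.567% lower, and no member (2486 genes at an unadjusted p under 0.05). Il6st was at 6.35, 5.95 and 6.23 in F KSR2 against 5.64, 5.19 and 5.18 in F KSR4, without overlap but not called (0.84 ± 0.30, adjusted p = 0.170). Lifr did not overlap between these lines either (0.64 ± 0.25, adjusted p = 0.204). M KSR3 and M KSR5 gave 4.48% called, 2.38% higher and 2.10% lower. Stat3 was the only member called, at 7.30, 7.25 and 7.13 in M KSR3 and 6.43, 6.21 and 6.29 in M KSR5 (0.92 ± 0.25, adjusted p = 0.0474). That call was lost in 12 of the 18 fits that left out 1 library. Id2 read 0.94, 1.88 and 1.96 in M KSR3 and 2.25, 3.63 and 4.97 in M KSR5, a difference of -2.02 ± 0.66 (adjusted p = 0.0931). Libraries of these lines also lay apart for Gbx2 (-0.70 ± 0.77, adjusted p = 0.715) and Id3 (-1.46 ± 0.97, adjusted p = 0.482), neither of them called.

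M KSR5 library 3, with the most fibroblast marker RNA, also had the highest Id1, Id2, Id3 and Bmp4 of its line. It held 140 RPM of Id1, against 34.97 and 60.2 in libraries 1 and 2, and 31.3 RPM of Id2, against 4.75 and 12.4. Its fibroblast markers were at a median of 0.678% of their MEF level. Their part in these levels was not tested.

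Libraries of one line differed most for the BMP genes and Gbx2. The pooled SD within the pluripotent groups was 1.52 for Id3, 1.17 for Id1, 1.08 for Gbx2, 1.07 for Bmp4 and 1.02 for Id2, against 0.26 for Lifr, 0.27 for Il6st, 0.35 for Stat3 and 0.43 for Socs3. Among genes within 1 log2 of its level, Id1 had a larger SD than 99.8%. Library 2 of F KSR2 was the lowest of its line for Id1 (3.74), Bmp4 (3.12), Id2 (2.35) and Id3 (-0.31). Library 2 of F KSR4 was likewise lowest for Id1 (3.35), Bmp4 (2.42), Id2 (3.95), Id3 (0.91) and Gbx2 (2.42). That library was the highest of its line for Stat3 (6.49) and Socs3 (6.55). In TX 2i ESCs, library 2 was lowest for Id1, Bmp4 and Id3. Their part in the comparisons was followed by leaving libraries out.

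The order of mean levels across groups is a description. For Lifr it ran M KSR5 (6.29), M KSR3 (6.14), F KSR2 (5.88), F KSR4 (5.24), TX 2i ESCs (5.10) and MEFs (4.25), with overlapping libraries between M KSR5 and M KSR3 and between F KSR4 and TX 2i ESCs. Socs3 took the same order, each neighbour overlapping with the next. Stat3 ran from MEFs (7.46) through M KSR3 (7.23), M KSR5 (6.31), F KSR2 (5.99), F KSR4 (5.98) and TX 2i ESCs (5.62), with a gap only between M KSR3 and M KSR5. For Id1, M KSR3 (6.59), M KSR5 (6.06), MEFs (5.84), F KSR2 (5.26) and F KSR4 (4.83) overlapped in turn and TX 2i ESCs (2.33) stood apart. Bmp4 had the same ends, M KSR3 (6.04) and TX 2i ESCs (3.49), and overlap at each step.

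Likeness was measured as the root mean square difference of the 6 group means after removing each gene's own mean, over 14660 genes. Socs3 was the gene most like Lifr (0.12 log2), followed by Sema6c (0.13). Sema6c (0.11) and Lifr (0.12) were most like Socs3. Stat3 was nearest to Stxbp4 and Nt5c (both 0.14), which lie on chromosome 11 as it does. Bmp4, on chromosome 14, was nearest to Vps53 (0.08) and Rap1gap2 (0.25), which are also on chromosome 11, and Id3 to Asah2 (0.10) and Hspa12b (0.26). Less close were Calml4 (0.26) and Tnfrsf26 (0.30) for Id1, Stk39 and Arl4c (both 0.34) for Id2, and Tdrd5 (0.58) and Gm1564 (0.61) for Gbx2.

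The hybrid genome gave a second readout, the share of allelic reads from the maternal BL6 genome. Reads were assigned by the authors, and only libraries with at least 5 allelic reads for a gene were used. In MEFs 99.9% of allelic H19 reads were maternal and none of the 136 of Snrpn, as their known imprinting has it. Id2 had no allelic read in any library, and Gbx2 none in MEFs. Intervals are 95% Wilson intervals and cover counting error only.

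Bmp4 and Id1 had paternal excess in every pluripotent library with enough reads. Id1 was at 43.6%, 50.0% and 47.8% maternal in MEFs. In KSR-iPSCs the 12 shares lay between 7.7% and 29.7%, all below MEFs, on 19 to 360 allelic reads a library. Chromosome 2 as a whole gave 51.8% to 52.8% maternal in the means of those lines and of TX 2i ESCs. Of TX 2i ESCs, library 1 alone had enough reads, with 0 of 15 maternal (interval up to 20.4%). Library 3 fell short of 5 reads, and all 4 of its Id1 reads were maternal (interval 51.0% to 100%). Bmp4 went from 57.1%, 69.0% and 50.9% in MEFs to between 6.2% and 43.3% in KSR-iPSCs, again without overlap, and to 14.9%, 0.0% and 7.1% in TX 2i ESCs. Genes within 5 Mb of Bmp4 were at 46.9% to 48.4% maternal in the pluripotent groups. This difference between cell types was seen in the data first and not tested.

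Stat3 had a maternal share of 73.8%, 72.9% and 74.3% in M KSR3. The other KSR-iPSC libraries were at 48.4% to 59.7%. The difference of 18.9 percentage points had an exact permutation p of 0.00909 (two-sided, 3 against 9 libraries), and 0.0848 after adjustment over 28 tests. M KSR3 held 39.5 ± 4.07 RPM of maternal and 14.1 ± 1.63 of paternal Stat3 reads, M KSR5 14.9 ± 0.70 and 11.8 ± 1.52 (SD, n = 3). Genes within 5 Mb of Stat3 moved with it in M KSR3: their maternal share was 66.6%, and 116 of them had a median level 0.56 above the other lines in log2 RPM, against 1.04 for Stat3. Their part in the Stat3 result was not tested.

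Gbx2 was at 59.4%, 66.1% and 64.8% maternal in M KSR3 and at 40.7% to 59.1% in the other KSR-iPSC libraries (14.9 points, exact permutation p = 0.00909, adjusted 0.0848). Chromosome 1 had a mean share of 68.0% in M KSR3 and 51.6% to 52.0% in the other lines. Socs3 was at 43.5%, 47.3% and 39.0% in F KSR2, below all other KSR-iPSC libraries (-8.77 points, same p and adjusted p). TX 2i ESCs, outside that test, lay in the same range at 45.3%, 41.1% and 42.7%. In M KSR3, where chromosome 11 gave 61.7%, Socs3 was at 51.5% ± 1.33 (SD). Genes within 5 Mb of Socs3 were at 56.4% there, with a median level 0.15 above the other lines in log2 RPM. None of the 28 tests reached 0.05 after adjustment, but 0.00909 is the smallest p that 3 against 9 libraries allow, and 6 tests would have had to reach it. The adjusted values therefore do not speak to whether the shares differ.

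Lifr was at 77.2% ± 4.5 maternal in TX 2i ESCs (SD, n = 3), 57.4% ± 2.0 in MEFs and 57.5% ± 1.8 to 67.6% ± 4.4 in the KSR-iPSC lines. Chromosome 15 was at a mean of 62.1% in M KSR5 (65.1%, 65.1% and 56.0% by library) and at 50.8% to 51.4% in the means of the other groups. Lifr was at 70.2%, 70.1% and 62.6% in the same M KSR5 libraries. Genes within 5 Mb of Lifr had a median level 0.31 above the other lines in log2 RPM there, against 0.48 for Lifr. Their part in the Lifr values was not tested. Id3 was at 50.1% ± 1.0 in MEFs. It had no maternal read among 10 and 14 allelic reads in F KSR2 (intervals up to 27.8% and 21.5%), where chromosome 4 gave 43.4%. In TX 2i ESCs chromosome 4 gave 27.7%, 31.9% and 37.5%, and Id3 41.7%, 50.0% and 20.0% on 24, 6 and 15 allelic reads. Il6st ranged only from 50.7% to 59.2% in the group means.

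**Figure D3:**
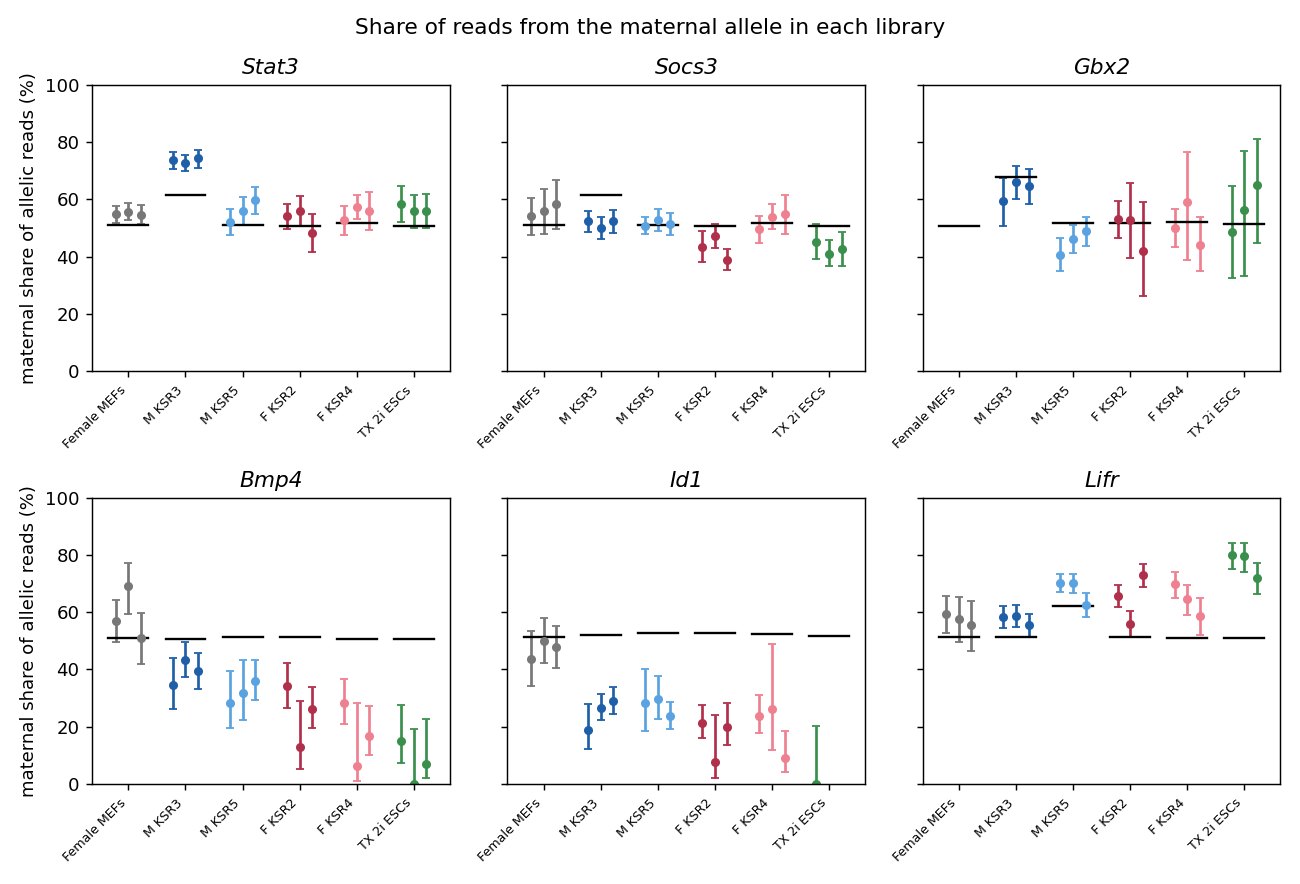
Maternal share of allelic reads (%, vertical axis) in each library for 6 of the genes, with 95% Wilson intervals; black lines are the mean share of the gene's whole chromosome in that group. Bmp4 and Id1 lie under the line in all KSR-iPSC libraries, and Stat3 stands at 72.9% to 74.3% in M KSR3.

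The other genes of the pathways were taken from a list of 74, sorted by role. Against MEFs, 62 of the 71 tested were called, 17 higher and 45 lower in pluripotent cells, with a median log2 difference of -1.17 (0.21 over all genes tested). Over all genes 74.6% were called, 42.1% higher and 32.5% lower, and no role was tested against that share. Of the LIF and STAT3 targets, 6 of 8 were higher and 1 lower: Tfcp2l1, a naive pluripotency transcription factor, rose by 8.92 ± 0.30 (SE) and the Krüppel-like factor Klf5 by 4.17 ± 0.25. Of the BMP antagonists and inhibitors, 10 of 12 were lower and none higher. The secreted BMP antagonist Grem1 fell most there (-11.15 ± 0.99). LIF family ligands were lower in 6 of 7 and BMP receptors in 5 of 6, and all 4 SMADs were lower.

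Osmr, the oncostatin M receptor, fell by 9.73 ± 0.68 and the BMP target Atoh8 by 7.96 ± 0.58 (SE), while the ligand Bmp5 fell by 7.24 ± 0.44. Osm, the ligand oncostatin M, rose by 5.46 ± 0.36, the phosphatase gene Dusp9 by 5.15 ± 0.21 and the activin and BMP receptor Acvr2b by 4.25 ± 0.34. Where a library had no reads, the fitted value rests on the level at which 0 was held. Pooled reads gave 2 reads of Osm in all MEFs and 5 of Bmp5 in all pluripotent libraries.

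Of the list, 21 of 71 list genes were called when KSR-iPSCs were set against TX 2i ESCs, 11 higher and 10 lower, beside 23.0% of all genes (11.0% higher, 12.0% lower). The receptor subunit Cntfr was higher in KSR-iPSCs by 3.04 ± 0.35 (SE, adjusted p = 1.4e-05), Stat5a by 1.99 ± 0.28 and the AP-1 gene Junb by 1.32 ± 0.29. The ligand Bmp6 was lower by 3.01 ± 0.28 (adjusted p = 1.6e-06), as were Id4 (-2.48 ± 0.49), the receptor Il6ra (-2.16 ± 0.49), the inhibitory SMAD Smad6 (-1.82 ± 0.24) and Tfcp2l1 (-1.57 ± 0.31). Id4 thus went opposite to Id1. None of the 4 SMADs was called.

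In the other comparisons little of the list was called. Cntfr was lower in female than in male lines by 1.17 ± 0.30 (SE, adjusted p = 0.0462), 1 of 63 tested. Atoh8 had 0 reads in all F KSR2 libraries and 31 in F KSR4, at least 10.8 times lower against a floor of 3 reads over the group. M KSR3 exceeded M KSR5 in Stat5a (1.46 ± 0.36), which lies beside Stat3, and in Tfcp2l1 (1.42 ± 0.39), and had less Osm (-3.70 ± 0.47).

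**Figure D4:**
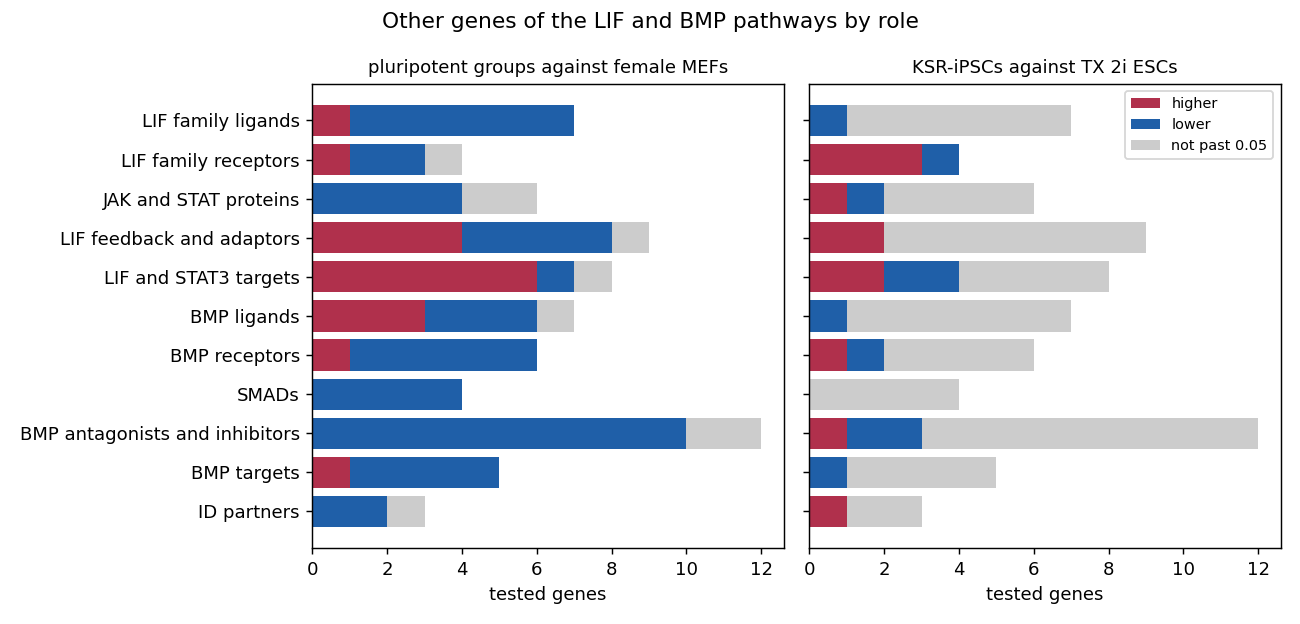
Number of tested genes (horizontal axis) in each role of the pathway list that were higher, lower or not past an adjusted p of 0.05, in pluripotent groups against MEFs (left) and KSR-iPSCs against TX 2i ESCs (right). On the left 10 of 12 BMP antagonists and inhibitors are lower and 6 of 8 LIF and STAT3 targets higher.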

How the data were processed

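Strand-specific poly(A) RNA-seq libraries were trimmed with Trim Galore 0.6.1 and aligned to GRCm38 with HISAT2 2.1.0 by the authors, split by allele, and quantified over genes in SeqMonk. The deposited values are log2 RPM, in all reads and in reads of the BL6 (maternal) and CAST (paternal) genomes, not divided by gene length. They are scaled to a library total that is larger than the reads on genes, by a factor that differs between libraries. In F KSR4 library 2 and M KSR5 library 1, a read was 0.0553 and 0.0552 RPM, for 14908173 and 16135192 reads on genes. Pooled folds and the RPM of allelic reads were scaled to the reads on genes instead. Of 72 value columns 54 were used and 18 (reads of neither allele) were not. A gene with no reads was held at 0.9 read in the deposited values, and 99.973% to 100% of values came back as whole reads within 0.05 read. Read length differs between the sources and was not used.

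Groups followed the labels. Genes with log2 RPM above 0 in at least 3 libraries were tested with limma 3.58.1 (R 4.3.3, trend) and Benjamini-Hochberg adjusted over all of them. Female against male lines used 12 libraries, and the other comparisons shared a fit of 18. Scripts were tested on simulated data. All 9 members were named in each comparison. List genes were named, in the first 2 comparisons, as the 5 largest changes each way among calls without overlap, and otherwise as all calls up to 5 each way. The 2 most alike genes were named for each member. Some results that these rules name are not reported here. The 5 Mb windows, promoter motifs and pooled folds were added after the values were seen. The members and lists were chosen with earlier results of these data known. The study calls the libraries of a group biological replicates, without saying how their cultures were separated. P-values of the 18-library fit therefore measure the spread between libraries within a clone or cell line. In the 12-library fit, which holds sex alone, the spread also includes differences between the 2 clones of a sex. The maternal share tests set 3 libraries of 1 clone against 9 of the other clones. Exon lengths came from GENCODE vM21 and promoters from RefSeq (GRCm38.p6). Bisulfite amplicon samples were not analysed here.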

Additional observations from a re-analysis of the deposited data

Results flagged for a closer look

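Among the 6 male KSR-iPSC libraries, Socs3 in M KSR5 library 1 stood far above the others, at a log2 RPM of 7.59. Its gap to the next library was 0.795 of the whole range, past the critical value of Dixon's test at 95%. This was 1 of 32 sets of levels and maternal shares looked at, and chance flags about 1 in 20.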

How the results depend on the processing

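Against MEFs, the members called (3 higher, 4 lower) numbered the same under every alternative run, while calls over all genes ran from 9423 to 11322 when 1 library was left out. Between KSR-iPSCs and TX 2i ESCs, the members called higher fell from 5 to 1 with the female lines only, and ran from 3 (without TX 2i ESCs library 1, which lost Socs3 and Stat3) to 6 with 1 library left out, none being lower (0). Lifr was lost without TX 2i ESCs library 2 and Socs3 without library 3. Calls over all genes then ran from 2125 to 4317. Bmp4 passed the threshold with log2(RPM + 1) (adjusted p = 0.0442), with libraries centred on their median (0.0389) and without F KSR2 library 2 (0.0152), F KSR4 library 2 (0.00883), MEF library 1 (0.0466) or M KSR3 library 1 (0.0483).

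Female against male lines gave 390 calls over all genes, 232 with no filter, 1523 in the fit of 18 libraries (members: 1 higher, 3 lower), 138 with line as a random effect, 4 between means of 2 lines each and 187 to 521 with 1 library left out (members 0 to 1 each way: Gbx2 lower without F KSR2 or F KSR4 library 1, Id2 higher without M KSR5 library 3). F KSR2 against F KSR4 gave 167, 1 in a fit of its 6 libraries and 66 to 1660 with 1 left out (members 0 to 1 higher, Lifr without F KSR4 library 1, and 0 lower). M KSR3 against M KSR5 gave 656, 1851 in a fit of its 6 libraries (1 member lower, Id3) and 145 to 1182 with 1 left out (members 0 to 1 each way). Stat3 was not called with no filter (0 members higher) or with centring (0). Without M KSR5 library 3 and F KSR4 library 2, chosen after seeing the data, calls were 665 (1 member lower, Stat3), 311 and 1182 in these 3 comparisons.

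No called difference changed sign, but 24 values of 12 uncalled ones did (lowest adjusted p 0.516). With 1 library left out, F KSR2 minus F KSR4 ran from -1.11 to 0.76 for Gbx2, -0.28 to 1.40 for Bmp4, -0.30 to 1.20 for Id1, -0.99 to 0.63 for Id2, -1.27 to 1.16 for Id3, -0.00081 to 0.57 for Socs3 and -0.30 to 0.25 for Stat3. M KSR3 minus M KSR5 ran from -0.35 to 0.020 for Lifr, -0.31 to 0.071 for Il6st and -0.39 to 0.055 for Socs3, female minus male from -0.89 to 0.029 for Id3, and KSR-iPSCs minus TX 2i ESCs from -0.0080 to 0.18 for Il6st. Stat3 in F KSR2 minus F KSR4 was -0.15 with centring and -0.014 with limma-voom. Without M KSR5 library 3 and F KSR4 library 2, Bmp4 (-0.28) and Id1 (-0.30) turned there and Id3 (0.12) between the sexes.

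The labels give every group the same replicate numbers, but no source ties them to a shared batch. Deviations of same-numbered libraries correlated at over 0.1 throughout in 1 of 15 pairs of groups. That pair was F KSR2 with TX 2i ESCs, at 0.25, 0.21 and 0.17. Each library there correlated best with its own number. The same held for F KSR4 with TX 2i ESCs (0.23, 0.38 and 0.060) and for no other pair. With a replicate block, calls were 11047, 3546, 314, 282 and 705 in the 5 comparisons in order. Bmp4 was then called in KSR-iPSCs against TX 2i ESCs (adjusted p = 0.0174) and Id2 lower in M KSR3 (0.0386, 1 member lower). The maternal share tests, which the smallest p allowed keeps from passing unless 6 reach it, gave 0 calls at 20 allelic reads and from per-allele RPM values, and say nothing of stability. Depth limits Gbx2 in MEFs (8 reads in all), and Id1 in TX 2i ESCs and Id3 by allele. With 3 libraries of 1 clone, the lines' differences are those of the clones.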
